A study of Mus musculus with 7 samples.

Results

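The unfolded protein response genes Eif2ak3, Ern1, Atf6, Atf4, Ddit3, Xbp1, Trib3, Hspa5, Herpud1 and Wfs1 were examined in ATAC-Seq peak lists of mouse islet alpha, beta and delta cells. ATAC-Seq uses a transposase to cut accessible DNA, and each peak is an interval with more cuts than its surroundings. The genes were 10 of the 21911 protein-coding genes of the GENCODE annotation, and their peaks were all distinct intervals that overlapped a gene body or the 10 kb on either side of it (mm10 build). All libraries came from healthy mice that carried 3 transgenes. A nuclear mCherry reporter driven by the Ins1 promoter (mIns1-H2b-mCherry) marked beta cells and a Cre-dependent YFP allele (Rosa-LSL-YFP) was combined with Gcg-Cre to mark alpha cells or with Sst-Cre to mark delta cells. Islets were pooled over mice of the same sex and sorted, so a library is a pool of animals. By the study's gates beta cells were sorted from the same mice as alpha or delta cells. Which cross each beta library came from is not stated in the sources used here, and whether the list names described below refer to it was not settled. Any shared animals are not part of the fits. The strain beyond these alleles and the age are not given in the sources used here. There were 2 alpha, 3 beta and 2 delta libraries, with no treatment.

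The unfolded protein response adjusts the endoplasmic reticulum (ER) to its load of secretory protein, and islet endocrine cells carry a heavy load because they make peptide hormones. It has 3 membrane sensors. PERK, the product of Eif2ak3, is a kinase that slows translation and raises the transcription factor ATF4. IRE1, the product of Ern1, is a kinase and RNase that splices Xbp1 mRNA, and ATF6 is cut in the Golgi to release a transcription factor. The targets of these arms include chaperones such as BiP (Hspa5) and components of ER-associated degradation such as HERP (Herpud1). Loss of PERK or of wolframin (Wfs1) is known to cause diabetes.

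The libraries differed in the number of peaks, which bears on every count below. The distinct peaks numbered 131151 and 111961 for alpha replicates 1 and 2, 518503, 91089 and 103935 for beta replicates 1 to 3, and 158066 and 75860 for delta replicates 1 and 2. Stringent peaks, those whose −log10 q reached 2, made up 39.7% and 43.8% of the alpha lists, 35.2% and 36.6% of beta 2 and beta 3, and 29.8% and 54.9% of the delta lists. Beta 1 stood apart, with 4.996% of its peaks past that level, and some results that rest on it are given with and without it. In number, stringent peaks were 52057 and 49047 in alpha, 25903, 32047 and 38058 in beta, and 47042 and 41683 in delta. The 3 beta lists thus had the fewest, which bears on every comparison of stringent peaks below. The lists hold peaks only and give neither the reads behind a value nor the size of a signal where no peak was listed. In the study's quality metrics the lowest read totals after filtering belong to beta libraries, and the part of depth in the results was not tested. In these bulk libraries a weak peak in every cell and a peak in fewer cells cannot be told apart.

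The labels of the 3 beta lists were not matched by the lists' own names. The list labelled beta 1 carries alpha in its name, and the lists labelled beta 2 and beta 3 carry delta. The labels were followed throughout. The names also hold a lane number, which was 6 for both alpha libraries and beta 1 and 7 for beta 2, beta 3 and both delta libraries, so alpha and delta libraries shared no lane, and a fit with lane as a term rests on the beta libraries, which were in both. Peaks on chromosome Y made up 0.0816% and 0.558% of the alpha lists, 3.52%, 0.121% and 0.656% of the beta lists, and 0.0924% and 0.442% of the delta lists, and were thus fewest in alpha 1, beta 2 and delta 1. The study's quality metrics name the same libraries as the female pools and the others as male, and sex was not a term in the fits. Defining markers were checked by whether a peak lay up to 1 kb from the 5′ end of the gene, called a start peak here. Gcg, the glucagon gene, had such a peak in both alpha libraries and in delta 2, Sst, the somatostatin gene, had one in both delta libraries and in beta 1, and Ins2, an insulin gene, had one in beta 3 alone. Ins1 had one in all 7 libraries, with its highest ranks in beta 1 and beta 3, but the Ins1 promoter is also part of the reporter. Of 6 alpha markers, 6 and 6 had a start peak in alpha, 4, 3 and 5 in beta, and 5 and 6 in delta, and their percentiles, defined below, summed to 339.9 and 360.4 in alpha and to 115.7 to 161.8 elsewhere. Of 8 beta markers, 4 and 5 had one in alpha, 5, 3 and 6 in beta, and 5 and 5 in delta. Their sums were 326.1, 140.4 and 231.6 in beta and 152.1 to 182.9 elsewhere, so beta 1 and beta 3 were the highest libraries and beta 2 the lowest. Of 6 delta markers, 5 and 5 had one in alpha, 5, 1 and 2 in beta, and 6 and 6 in delta. Their sums were 179.2 and 171.0 in delta, 105.5 and 108.5 in alpha, 19.8 and 66.6 in beta 2 and beta 3, and 195.4 in beta 1, the highest of all. The sums of all marker lists count weak peaks too, so a high sum in beta 1 does not show a strong signal. In beta 1 8314 of 15278 genes with a start peak had a stringent one. In delta 1 and 2 the counts were 11673 of 13645 and 11137 of 12329. Markers of other cell types were looked up as well. Of 6 acinar markers, 2 and 3 had a start peak in alpha, 2, 2 and 1 in beta, and 3 and 2 in delta, with Bhlha15 present and highest in all 7 libraries and the enzyme genes Cpa1 and Cela1 in none. Of 4 duct markers, 1 and 1 had one in alpha, 2, 1 and 1 in beta, and 1 and 3 in delta, with Cftr in all 7 and Krt19 in none. Of 4 immune markers, beta 1 had a peak at 3, led by Laptm5, delta 1 had one at Csf1r and the other libraries had 0, and Ptprc was without one throughout. Of 4 endothelial markers, alpha 2 had a peak at Pecam1, delta 1 had one at Kdr and the others had 0, with Cdh5 and Tie1 in none. The percentiles summed over each list ranged over the libraries from 0.2 to 39.0 for acinar, 1.4 to 39.1 for duct, 0.0 to 81.2 for immune and 0.0 to 22.6 for endothelial markers, and the highest immune sum was that of beta 1. Their part in the results was not tested.

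Stress elements at the promoters are shown first, since Hspa5 and Herpud1 were the genes in which a searched element lay under the start peak. The sequences are the 250 bases before the start site in RefSeq (GRCm38.p6), 5′ to 3′ on the coding strand, and 9 of the 10 genes were matched there (Atf6 was not). Capitals mark the matches. In Hspa5 (chr2:34771840-34772089, plus strand) they mark the ER stress response element ERSE, which is CCAAT followed by 9 bases and CCACG. In Herpud1 (chr8:94386179-94386428, plus strand) they mark first a C/EBP-ATF element, TGATGCAA read on the opposite strand, and then ERSE-II, which is ATTGG followed by 1 base and CCACG.
Hspa5: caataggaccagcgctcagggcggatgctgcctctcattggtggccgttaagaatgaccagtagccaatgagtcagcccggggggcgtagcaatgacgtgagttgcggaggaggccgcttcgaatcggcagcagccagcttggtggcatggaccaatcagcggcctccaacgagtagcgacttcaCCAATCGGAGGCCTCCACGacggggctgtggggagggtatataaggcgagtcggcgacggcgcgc
Herpud1: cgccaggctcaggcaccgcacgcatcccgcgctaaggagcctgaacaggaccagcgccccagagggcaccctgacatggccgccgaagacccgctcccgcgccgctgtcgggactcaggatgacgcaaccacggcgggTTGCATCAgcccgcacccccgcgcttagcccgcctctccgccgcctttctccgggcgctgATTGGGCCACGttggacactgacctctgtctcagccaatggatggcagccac

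ERSE is known as the site bound by ATF6 with NF-Y, and ERSE-II was described in the HERP promoter itself. The windows searched ran from 250 bases before to 50 bases after each start site, on both strands. ERSE was found in 39 of 32851 RefSeq promoter windows (0.119%) and in 1 of the 9 genes. ERSE-II was found in 12 windows (0.0365%) and in 1 of the 9. The C/EBP-ATF element was found in 294 windows (0.895%) and in 1 of the 9. The UPR element TGACGTGG (222 windows, 0.676%) and the cAMP response element TGACGTCA (588 windows, 1.79%) were in none of the 9. A match is a description of letters, not a bound site.

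The start peak covered each of these elements in 7 of 7 libraries. At Herpud1, the peak summits lay between 0 and 13 bases from the centre of ERSE-II in all 7 libraries and between 48.5 and 70.5 bases from the centre of the C/EBP-ATF element. At Hspa5 the summits lay 72.0 to 139 bases from the centre of the ERSE, on its upstream side. The Herpud1 summits of all 3 cell types thus fell together, at positions −69 to −47 from the GENCODE start.

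**Figure D1:**
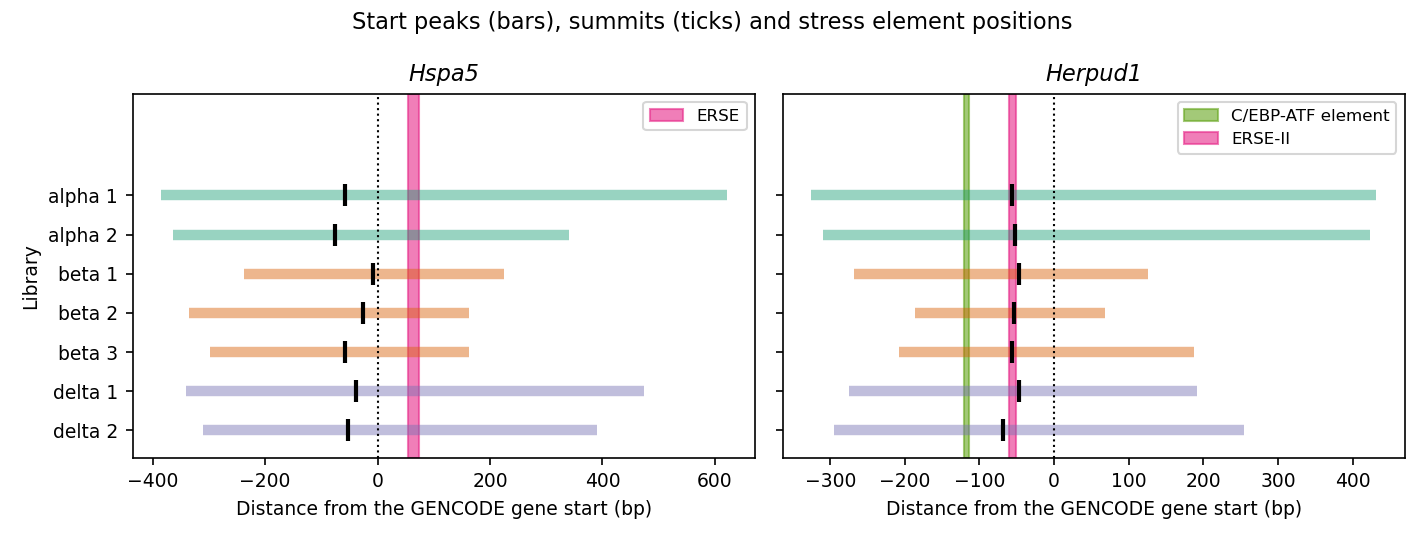
Peaks at the starts of Hspa5 and Herpud1 in each of the 7 libraries, with distance from the GENCODE gene start in bp on the x axis. Bars are peak intervals colored by cell type, ticks are summits and shaded bands are the elements found in the RefSeq promoters, and every Herpud1 summit sits within 13 bases of the centre of ERSE-II.

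A start peak was listed for 10 of 10 genes in all 7 libraries, beside 9099 of 21911 protein-coding genes (41.5%). Among stringent peaks, 8 of 10 genes kept a start peak in every library, beside 31.1% of all genes, and the exceptions were the sensors Ern1 and Atf6, which lacked one in beta 1 and beta 2. Those libraries also had the fewest genes with a stringent start peak, 8314 and 8615, beside 10441 to 12263 in the others. To compare libraries of unlike size, the highest −log10 p of a start peak was ranked among the protein-coding genes with a start peak in the same library. This TSS percentile runs from 0 to 100. Its mean over the 7 libraries had a median of 67.2 over the 10 genes and of 17.5 over all protein-coding genes, those without a peak included. The percentile does not remove the effect of list length, because weak peaks listed in a library raise the rank of its stronger ones. The genes ranked numbered 15278 in beta 1, 10705 in beta 2 and 12329 to 13645 in the others.

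The sensors were ranked far apart. Eif2ak3 had a TSS percentile of 96.7 and 95.4 in alpha 1 and 2, 98.0, 98.4 and 94.3 in beta 1 to 3, and 98.5 and 96.8 in delta 1 and 2. Its start was thus among the strongest of each library, with overlapping cell types on this scale. Ern1 had values of 46.1 and 42.4 in alpha, 37.0, 15.1 and 36.3 in beta, and 40.6 and 28.8 in delta. Atf6 had values of 56.0 and 56.97 in alpha, 42.7, 7.202 and 36.3 in beta, and 49.1 and 42.2 in delta. Both alpha libraries were above all others at Ern1 and Atf6, and beta 2 was the lowest library at both, on this scale. On fold enrichment over the local background delta 1 (7.93) was above alpha 1 (7.69) at Ern1, and beta 1 was the lowest library at Ern1 (2.70) and at Atf6 (3.33). Fold enrichment was not scaled between libraries, and its median over all peaks ran from 1.80 in beta 1 to 4.10 in delta 2. At Atf6 the value did not come from the same peak in every library. It came from a peak over the start, with a summit at −90 and −55 bases, in beta 2 and delta 1, and from a separate region upstream, with summits from −951 to −800 bases, in the other 5 libraries. These 2 regions each had a peak in 6 libraries, with none over the start in beta 1 and none upstream in beta 2, so the Atf6 values compare unlike positions. On fold enrichment Eif2ak3 was again above the other sensors in every library, with 13.8 to 15.9, beside 3.33 to 10.4 at Atf6 and 2.70 to 8.42 at Ern1.

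The 3 transcription factors lay between the sensors on average. Atf4, the effector of PERK, had TSS percentiles of 76.7 and 67.3 in alpha, 66.6, 52.6 and 58.5 in beta, and 61.9 and 70.2 in delta. Ddit3, which encodes the pro-apoptotic factor CHOP, had 76.4 and 74.2 in alpha, 76.3, 63.1 and 40.8 in beta, and 72.4 and 83.8 in delta. Xbp1, the factor activated by IRE1, had 55.4 and 60.5 in alpha, 72.2, 45.4 and 63.6 in beta, and 66.8 and 65.6 in delta. At Atf4 both alpha libraries were above the 3 beta libraries, beta and delta overlapped, and the Atf4 peak of beta 1 lay downstream of the start, at +678 to +975 bases. On this scale beta overlapped the other types at Ddit3 and Xbp1 and had the widest spread there (SD 17.96 and 13.7, n = 3). On fold enrichment the Atf4 start was at 12.6 and 11.2 in alpha, 5.65, 6.34 and 8.62 in beta, and 11.2 and 12.6 in delta. The 3 beta libraries were below all others there. With log2 fold enrichment quantile-normalised between libraries, alpha minus beta was 0.261 at Atf4 (interval −0.310 to 0.832). Beta minus delta was −0.198 (−0.769 to 0.374), and these intervals settled the direction of neither difference. Without normalisation the Ddit3 start was at 9.54 and 9.66 in alpha, 6.93, 6.82 and 5.70 in beta, and 11.5 and 13.8 in delta. The 3 beta libraries were again below all others. With the same normalisation alpha minus beta was −0.0455 at Ddit3 (interval −0.791 to 0.700), so beta was not below alpha on average. Beta minus delta was −0.358 (−1.10 to 0.387). At Xbp1 fold enrichment without normalisation was 8.74 and 10.5 in alpha, 6.67, 5.56 and 9.76 in beta, and 12.3 and 11.6 in delta. Beta thus overlapped alpha there and was below delta.

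Among the targets, the start of Hspa5 was steady on the percentile and that of Wfs1 was graded. Hspa5, the major ER chaperone of the Hsp70 family, had values of 82.0 and 82.2 in alpha, 85.6, 78.4 and 86.0 in beta, and 84.7 and 86.9 in delta. Its fold enrichment was less even, from 9.52 and 10 in beta 1 and beta 2 to 15.1 in beta 3, with 12.98 and 13.6 in alpha and 15.5 and 15.1 in delta. Herpud1 had values of 60.98 and 82.2 in alpha, 78.7, 81.6 and 71.6 in beta, and 86.4 and 84.7 in delta. Both delta libraries were above all others at Herpud1. Trib3, a pseudokinase induced through ATF4 and CHOP, had values of 37.8 and 51.2 in alpha, 72.5, 57.5 and 46.1 in beta, and 64.2 and 67.2 in delta. Alpha was below delta at Trib3 with no overlap, and beta spanned both on this scale. On fold enrichment Trib3 was at 6.71 and 10.5 in alpha, 6.72, 6.82 and 6.74 in beta, and 12.5 and 12.3 in delta, and beta did not reach delta. Wfs1, which encodes an ER membrane protein whose loss depletes beta cells, had values of 96.2 and 94.9 in alpha, 92.3, 92.9 and 90.9 in beta, and 84.4 and 81.0 in delta. The 3 cell types did not overlap at Wfs1 on this scale, in the order alpha, beta, delta. On fold enrichment, at 19.7 and 19.2 in alpha, 12.1, 15.4 and 16.8 in beta, and 16.4 and 13.5 in delta, alpha was again the highest but beta and delta overlapped.

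**Figure D2:**
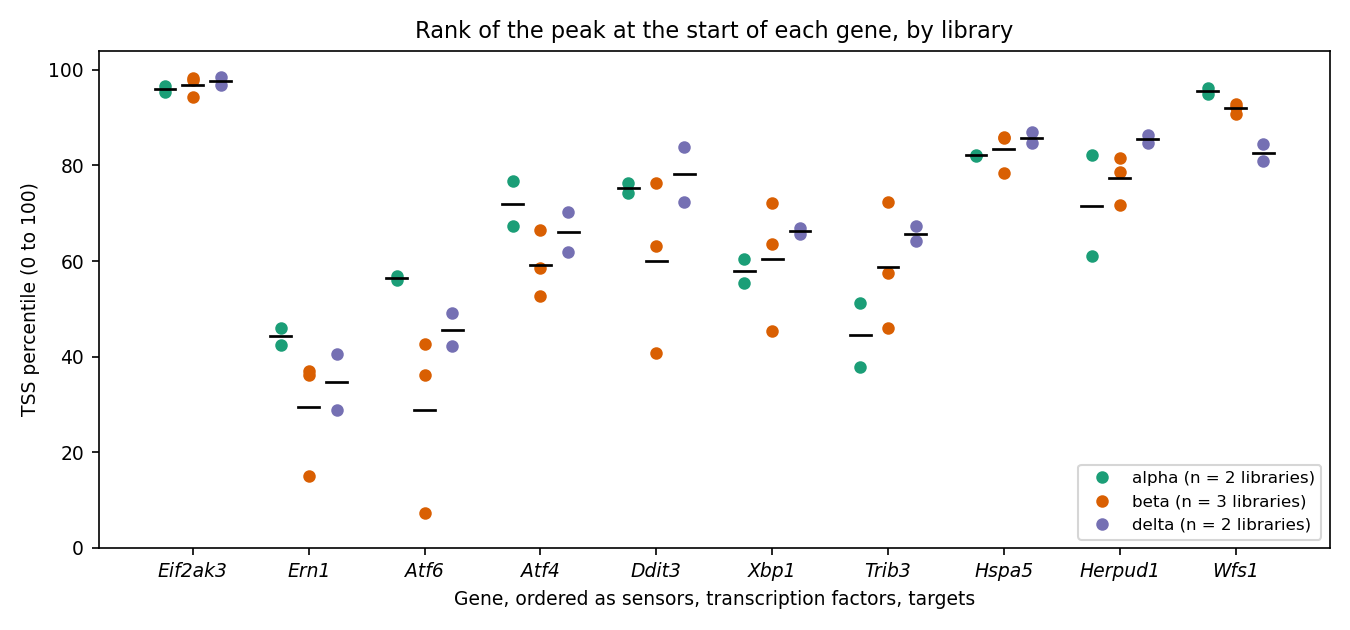
TSS percentile (y axis, rank of the start peak among the genes with one in the same library, 0 to 100) of the 10 genes (x axis), with a point for each library colored by cell type and a line for the mean of 2 alpha, 3 beta or 2 delta libraries. Eif2ak3, Wfs1 and Hspa5 sit high in every library, Ern1 and Atf6 sit lowest on average over the 7 libraries, and the cell types separate without overlap on this scale at Wfs1.

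No difference between cell types at the 10 starts passed the test. TSS percentiles were fitted by limma over the 14902 genes with a start peak in at least 2 libraries, with Benjamini-Hochberg adjustment over all of them and a threshold of 0.05. Over the 3 cell types, 1 gene (0.00671%) was called and 1474 genes had an unadjusted p under 0.05; 0 of the 10 genes were in either set of this test. Between alpha and beta 1 gene (0.00671%) was called, between alpha and delta 0 (0.0%, with 799 at an unadjusted p under 0.05), and between beta and delta 4 (0.0268%), none of them among the 10. Below an unadjusted p of 0.05 were Atf6 between alpha and beta, beside 1733 of the 14902 genes, and Wfs1 between alpha and delta, beside 799. The genes called, which were looked up after the fit, were Gm10775, Ccna1, 2610528J11Rik and Prr36. A missed threshold does not show that the cell types were alike.

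The largest differences and their 95% intervals show what was left undecided. The Wfs1 start was 12.9 ± 4.36 points (SE) higher in alpha than in delta, with an interval of 2.18 to 23.6 and a limma adjusted p of 0.855. The Atf6 start was 27.8 ± 10.9 points higher in alpha than in beta, with an interval of 0.912 to 54.6 and a limma adjusted p of 0.411. The Trib3 start was lower in alpha than in delta by a difference of −21.2 ± 9.65 points, with an interval of −44.9 to 2.49 and a limma adjusted p of 0.954. It was −23.0 points (interval −42.2 to −3.91) with stringent peaks alone and −41.9 points (−70.3 to −13.4) with lane as a covariate. The lane value rests on beta 1, the only beta library in lane 6, since alpha and delta shared no lane. Without beta 1 and without lane, the difference was −21.2 points. In the same contrast 1135 of 12418 genes had an unadjusted limma p under 0.05 with stringent peaks, and 2178 of 14902 with lane. For Ern1 and Atf4 the largest difference was again alpha over beta, at 14.8 ± 8.32 and 12.8 ± 6.29 points, and both intervals held 0. With stringent peaks alone the difference was 29.7 points at Ern1 (interval 8.13 to 51.3), 25.4 points at Atf4 (9.44 to 41.3) and 43.3 points at Atf6 (22.5 to 64.2). Beta 1 and beta 2, without a stringent start peak at Ern1 and Atf6, entered as 0 there. In that limma fit 2921 of 12418 genes had an unadjusted p under 0.05 between alpha and beta, 4 of the 10 among them. Of the 412 genes called, 396 were higher in alpha. With lane as a covariate the difference was 7.25 points at Ern1, 5.46 at Atf4 and 13.8 at Atf6, and all 3 intervals held 0. None of these was called after adjustment. The Ern1 difference was 7.62 points without beta 2, and the Atf4 difference 8.12 points without alpha 1. At Ddit3 beta minus delta was −18.1 points (interval −44.4 to 8.33), −8.42 points without beta 3 and −28.2 points (−52.1 to −4.39) with stringent peaks alone. In that last limma fit 2008 of 12418 genes had an unadjusted p under 0.05 between beta and delta. Of the 155 genes called, 149 were lower in beta. At Herpud1 alpha minus delta was −13.9 points (interval −33.7 to 5.85), −3.33 points without alpha 1 and −24.6 points (−43.3 to −5.79) without alpha 2. For Eif2ak3 and Hspa5 alpha minus delta lay between −12.5 and 9.32 points and between −15.8 and 8.41 points. The Atf6 difference between alpha and beta was 34.8 points without beta 1 and 16.99 points without beta 2.

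Away from the starts, the windows held a smaller set of shared regions. The 10 windows covered 574.371 kb and held 37 and 46 peaks in alpha, 108, 32 and 40 in beta, and 59 and 40 in delta. Stringent peaks numbered 24 and 26, 17, 14 and 21, and 27 and 28, so the excess of beta 1 lay in its weaker peaks. Peaks that overlapped by at least 1 bp were merged over the 7 lists into 834695 regions, 174 of them in the windows. Of these, 52 had a peak in at least 2 libraries, as did 133698 in all. A peak in all 7 libraries was found at 16 of the 52 (30.8%), beside 13.3% of all such regions, but the windows were chosen to hold gene starts, and 9 of the 16 lay within 1 kb of one of the 10. Atf6, the longest gene, had 12 regions, Eif2ak3 had 9 and Ern1 had 7, whereas Hspa5 had 1, its start.

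The other 7 regions shared by all libraries included the starts of neighboring genes. Trib3 +11.5 kb, counted in the direction of transcription from the start of Trib3, lay at the start of Rbck1, Atf4 +9.1 kb at that of Rps19bp1 and Ddit3 −1.7 kb at that of Mbd6. The rest were Eif2ak3 +27.9 kb, Eif2ak3 +67.6 kb, Atf6 +126.3 kb and Wfs1 +28.5 kb. Regions were ranked like the starts, by the highest −log10 p among the regions of at least 2 libraries with a peak in the same library. The regions ranked numbered 97134 in beta 1 and 45619 to 78511 in the others. A weak peak of beta 1 can therefore rank above a stronger peak of another library.

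An intronic region of Eif2ak3 ranked near its promoter. It spanned chr6:70872071-70872663, 27.9 kb into the gene, and overlapped no exon. Its region percentile was 99.4 and 99.3 in alpha, 96.6, 96.3 and 96.3 in beta, and 99.6 and 98.3 in delta. Its fold enrichment was 21.1 and 20.3 in alpha, 10, 12.9 and 16.2 in beta, and 24.9 and 18.8 in delta, beside 13.8 to 15.9 at the promoter, and it exceeded the promoter in 5 of 7 libraries, beta 1 and beta 2 excepted. On −log10 p it exceeded the promoter in the alpha libraries alone, at 69.5 and 77.5 against 63.4 and 70.0, and was below it in the other 5, as in beta 1 (16.7 against 41.5). On both percentile and fold enrichment the 3 beta libraries were below all 4 others, without overlap. The promoter overlapped between cell types on the percentile. On fold enrichment its beta values (14.38, 15.43 and 13.79) lay between those of alpha (13.77 and 13.75) and delta (15.66 and 15.92). The difference in percentile between alpha and beta was 2.94 ± 6.15 points (SE), with an interval of −12.2 to 18.1 and a limma adjusted p of 0.869, and it was 8.67 points with stringent peaks alone and 6.66 points with the top 50000 peaks of each list.

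The second intronic region of note was in Atf6, where accessibility was listed for alpha and delta libraries and hardly for beta. It spanned chr1:170731634-170732084, 135.9 kb from the start. Its percentile was 60.8 and 68.1 in alpha, 30.9 in beta 1 with no peak in beta 2 or beta 3, and 75.6 and 76.8 in delta. Fold enrichment was 5.07 and 6.17 in alpha, 1.80 in beta 1, and 7.33 and 8.21 in delta. All 4 alpha and delta peaks were stringent, and that of beta 1 was not. Beta was below delta by −65.9 ± 11.5 points (SE), with an interval of −94.3 to −37.5 and a limma adjusted p of 0.0803. Libraries without a peak, beta 2 and beta 3 here, entered this fit as 0. The adjoining region Atf6 +135.4 kb had a peak in alpha 2, beta 1, beta 3 and delta 1, with percentiles of 47.9, 30.95, 5.37 and 8.21. The neighboring region Atf6 +126.3 kb had a peak in all 7 libraries, with percentiles of 87.1 and 82.7, then 91.8, 36.1 and 73.2, and then 85.6 and 80.6, which overlapped between cell types. On fold enrichment it was at 10.5 and 9.52 in alpha, 6.14, 3.39 and 6.25 in beta, and 10.5 and 9.15 in delta, so on that scale the 3 beta libraries were below all 4 others here too. At Wfs1 +28.5 kb the percentiles were 91.8 and 87.2 in alpha, 89.8, 26.8 and 73.0 in beta, and 87.0 and 61.8 in delta. The difference between alpha and beta there was 26.3 ± 19.7 points, with an interval of −22.3 to 74.9 and a limma adjusted p of 0.752. It was 8.6 points without beta 2, 42.3 without beta 1 and 46.2 with stringent peaks alone.

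Both intronic sequences are given from the reference genome, 200 bases on the coding strand of the gene, because Eif2ak3 +27.9 kb ranked highest of the regions away from the starts and Atf6 +135.9 kb had the lowest adjusted p of the regions. Capitals span the summits of all 7 libraries in Eif2ak3 (chr6:70872251-70872450, plus strand) and of the 4 alpha and delta libraries in Atf6 (chr1:170731721-170731920, minus strand).
Eif2ak3 +27.9 kb: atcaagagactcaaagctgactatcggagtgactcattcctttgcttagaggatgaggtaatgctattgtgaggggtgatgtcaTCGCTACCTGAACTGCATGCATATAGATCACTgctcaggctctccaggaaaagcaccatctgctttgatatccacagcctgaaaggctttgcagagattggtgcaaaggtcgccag
Atf6 +135.9 kb: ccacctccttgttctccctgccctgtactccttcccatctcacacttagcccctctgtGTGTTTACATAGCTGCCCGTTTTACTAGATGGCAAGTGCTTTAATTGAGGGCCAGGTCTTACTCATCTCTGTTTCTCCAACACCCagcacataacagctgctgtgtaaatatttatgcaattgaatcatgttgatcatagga
The 7 Eif2ak3 summits fell within 32 bases and the 4 Atf6 summits within 85 bases. None of the 5 elements searched in the promoters was present in either stretch.

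**Figure D3:**
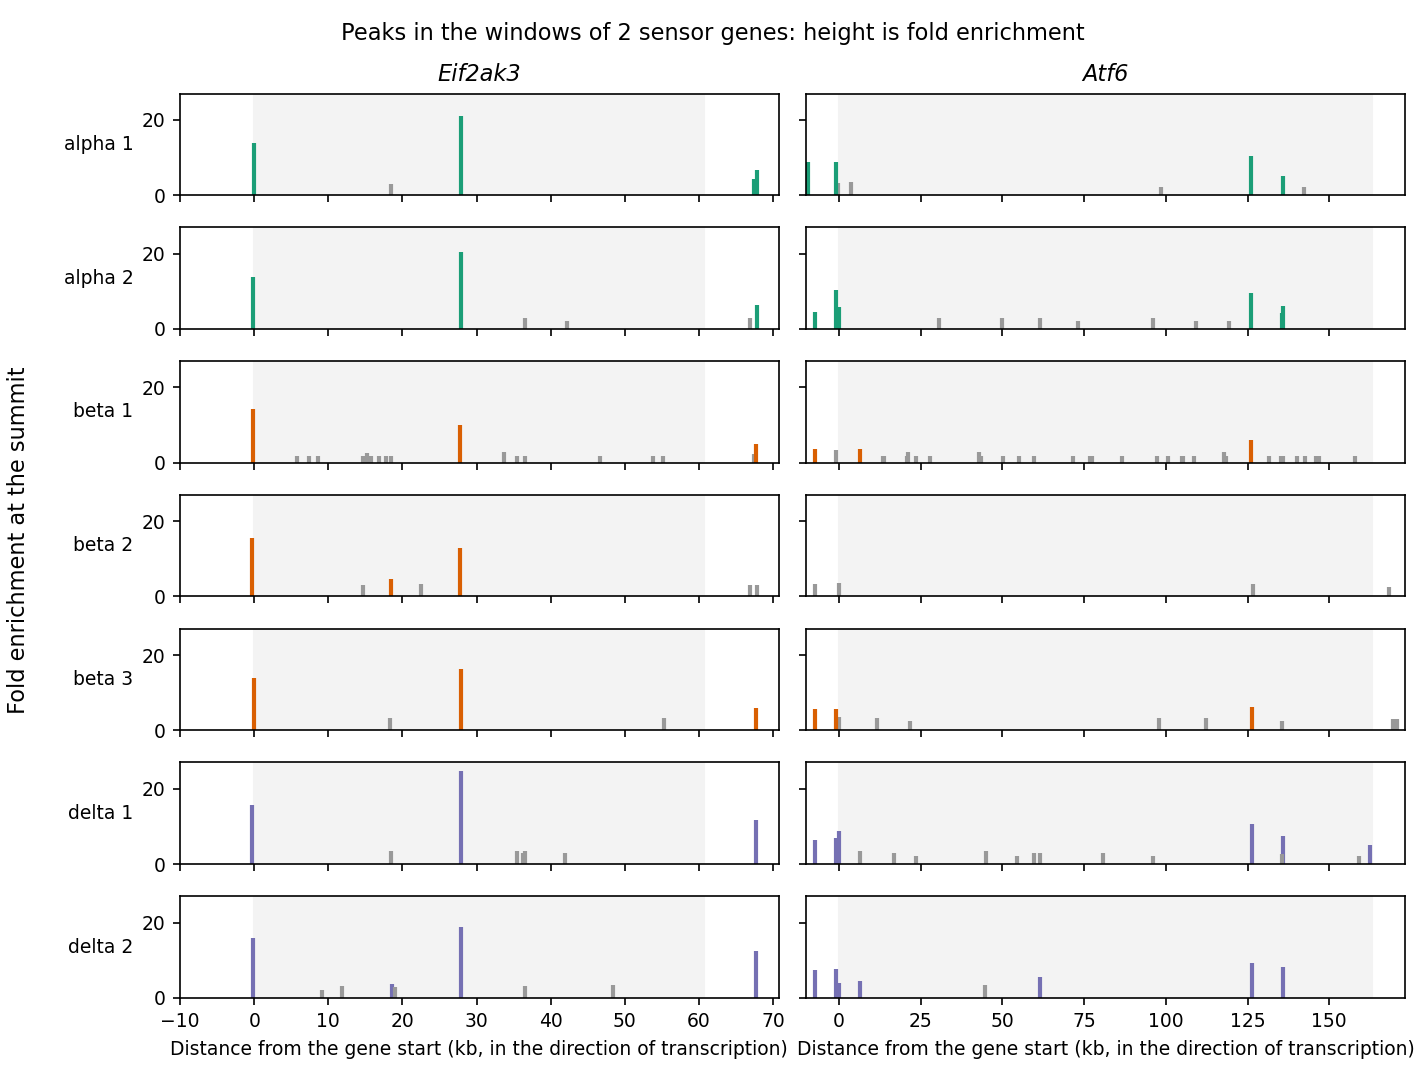
Peaks in the windows of Eif2ak3 and Atf6 by library, with distance from the gene start in kb on the x axis and fold enrichment at the summit on the y axis. Colored bars have a −log10 q that reaches 2, grey bars do not, and shading marks the gene body. The bar 27.9 kb into Eif2ak3 stands above the promoter in 5 of 7 libraries, and the bar 135.9 kb into Atf6 is colored in alpha and delta only.

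The region fit called none of the regions of the 10 genes. Over the 133698 regions, limma called 1894 (1.42%) over the 3 cell types at an adjusted p under 0.05, with 15211 at an unadjusted p under 0.05. Of the 52 regions of the 10 genes 0 were called and 5 had an unadjusted p under 0.05. Between alpha and beta 1761 regions (1.32%) were called, between alpha and delta 0 (0.0%, with 11127 at an unadjusted p under 0.05), and between beta and delta 1284 (0.96%), none of them in the windows. The adjusted p that came closest was 0.0884 over the 3 cell types, at Atf6 +135.9 kb.

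By presence alone, 13 of the 52 regions (25%) had a peak in 2 or more libraries of a cell type and in none of another, beside 30.1% of the 133698, a share below that background. In the windows 3 were present in alpha and absent in beta (5.41% of all regions), 3 in alpha and not delta (5.38%), 5 in beta and not alpha (14.8%), 4 in beta and not delta (13.2%), 4 in delta and not alpha (5.13%) and 2 in delta and not beta (4.85%). Of the 13, 6 had no stringent peak in any library and 4 lost the pattern without beta 1. The values that follow are a description, since presence chose the regions.

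Alpha regions lay at Xbp1, Ern1 and Herpud1. Xbp1 +1.1 kb had a peak in both alpha libraries and no other, with percentiles of 35.3 and 33.0. Ern1 +99.6 kb, at the start of the endothelial adhesion gene Icam2 beyond the end of Ern1, was likewise found in both alpha libraries alone, at 24.6 and 21.6. Herpud1 −8.6 kb had percentiles of 50.1 and 55.0 in alpha and 46.8 in delta 1. Herpud1 +0.9 kb had 11.6 and 69.0 in alpha and 54.9 and 11.1 in beta 1 and beta 2, and none in delta. Stringent peaks were found at Herpud1 −8.6 kb in both alpha libraries and delta 1 and at Herpud1 +0.9 kb in alpha 2, and at neither of the others. Fold enrichment at Herpud1 +0.9 kb was 2.89 and 5.12 in alpha and 2.86 and 3.09 in beta 1 and beta 2. Beta 1 was thus near alpha 1 on that scale, unlike on the percentile.

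Delta regions lay at Atf6, Xbp1 and Trib3. Atf6 +44.9 kb had percentiles of 40.9 and 23.99 in delta and no peak elsewhere. Atf6 +61.5 kb had 21.5 and 60.2 in delta and 21.6 in alpha 2, and Atf6 +6.4 kb had 40.9 and 47.2 in delta and 80.1 in beta 1. Xbp1 +12.6 kb had 52.8 and 43.1 in delta and 66.5 in beta 1. Trib3 +0.4 kb, just inside the gene, had 49.2 and 32.5 in delta, 55.5 and 0.692 in beta 1 and beta 2, and none in alpha. At Xbp1 +12.6 kb and Trib3 +0.4 kb both delta peaks, and no others, were stringent.

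Beta regions rested on beta 1. Ddit3 +7.1 kb, within the neighboring gene Mars, had percentiles of 75.8 and 53.1 in beta 1 and beta 2 and 40.9 in delta 1, and both beta peaks were stringent. Trib3 −5.9 kb, Eif2ak3 +14.6 kb and Eif2ak3 +55.2 kb had a peak in beta 1 and in 1 other beta library, and none of these peaks was stringent. No region of the 10 genes was present in at least 2 beta libraries and absent from alpha or delta once beta 1 was left out.

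Most other genes of the pathway had a start peak as well. Of 79 genes in 5 lists, 67 (84.8%) had a start peak in all 7 libraries, 8 in 2 to 6 and 4 in fewer, and limma called 0 of the 75 that could be fitted, with 8 at an unadjusted p under 0.05. All 21 ER chaperones and folding enzymes had one in all 7 libraries, with a median mean percentile of 77.3. They ran from 97.1 at Pdia6, a disulfide isomerase, and 94.98 at Hsp90b1, which encodes GRP94, down to 45.0 at Sil1, a BiP exchange factor, and 16.8 at Fkbp11. Of 18 genes of ER-associated degradation 17 had one in all 7 libraries, with a median of 81.5. Sel1l, the adaptor of the HRD1 ligase, was at 99.8 and Edem1, which targets misfolded glycoproteins, at 98.5, whereas Syvn1, which encodes HRD1 itself, was at 29.3 and Nploc4, with a peak in 4 libraries, at 3.93.

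The arms with the sensors were more uneven. Of 25 genes of the PERK arm and the integrated stress response 18 had a start peak in all 7 libraries (72.0%, median 53.3). Dnajc3, which encodes the PERK inhibitor P58IPK, was at 91.7 and Eif2ak2, which encodes the kinase PKR, at 91.3. Nupr1 had a peak in 2 libraries, at a mean of 3.01, and Atf3, a stress-induced factor, had one in beta 1 alone, at a mean of 0.0781. Of 7 IRE1 partners 5 had one in all 7 libraries (71.4%, median 71.2), with Dnajb9, an ER co-chaperone that restrains IRE1, at 97.5 and Mapk8, which encodes JNK1, at 92.8. Rtcb, the ligase that joins the cut Xbp1 mRNA, had a peak in 6 libraries, at 20.9. Ern2, the epithelial paralog of Ern1, had one in delta 1 alone, at 0.823. Of 8 genes that process or resemble ATF6, 6 had a start peak in all 7 libraries (75.0%, median 39.4), with Creb3l2 at 90.5 and Atf6b at 67.5, while Creb3l4 had one in alpha 1 alone and Creb3l3 in no library.

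The median difference between alpha and beta was 1.38 points over the 10 genes, 5 of which were higher in alpha, and 5.99 points over the fitted pathway genes, 56 of 75 of which were higher in alpha, beside 1.22 points over the 14902 genes, 8138 of which were higher in alpha. Between alpha and delta the medians were −2.21, 0.807 and 0.639 points, and between beta and delta they were −6.31, −2.91 and −0.162 points. In the beta to delta comparison 1 of the 10 genes, Wfs1, was higher in beta, beside 7229 of the 14902 genes. These are descriptions of the lists and were not tested as such.

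**Figure D4:**
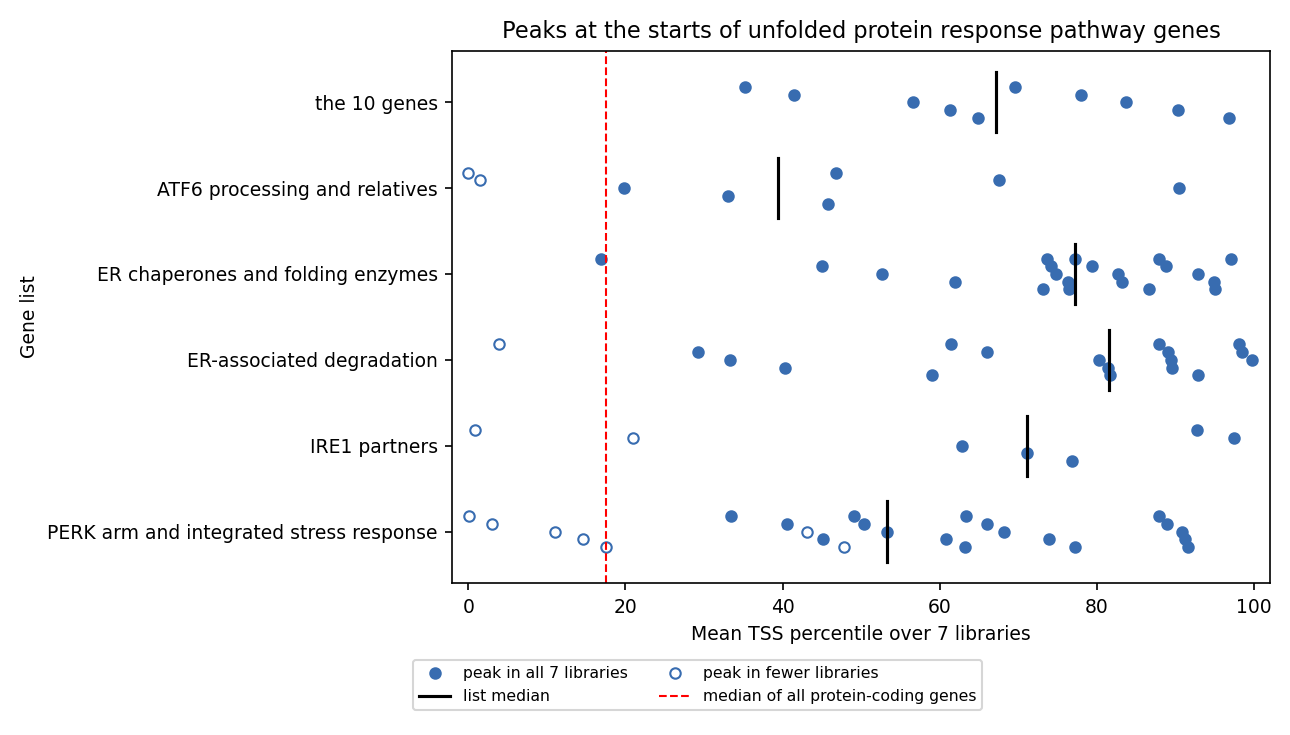
Mean TSS percentile over 7 libraries (x axis) of the 10 genes and of the 5 pathway lists (y axis), with a point for each gene. Filled points had a start peak in all 7 libraries, open points in fewer, black lines are list medians and the dashed line is the median of all protein-coding genes, 17.5.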

How the data were processed

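Per the labels and the study's methods, single-end reads were trimmed with Trimmomatic, aligned with Bowtie2 to mm10 without mitochondrial DNA, cleared of marked duplicates (Picard) and blacklisted regions, and peaks were called for each library with MACS2. Versions are not given in the sources used here, nor is a shift of reads for the transposase. The deposited lists give each peak a score, a fold enrichment, a −log10 p and a −log10 q, all from the authors' peak calling, with the score a rounded multiple of the −log10 p and not used further. Duplicate summits of the same interval were collapsed to the one of highest −log10 p. Genes were taken from GENCODE M21 and promoters from RefSeq (GRCm38.p6). Start and region percentiles were fitted with limma 3.58.1 (R 4.3.3), cell type as the factor, all 7 libraries sharing one spread. A count test was not possible, because peak lists hold no reads. On simulated data the fits returned the planted sizes on average, but the region fit called none of the planted shifts and the start fit only part of the larger ones, so a region that was not called cannot be read as alike between cell types. The replicates are labelled biological, and p-values measure the spread between pooled libraries. The genes and lists were chosen with earlier results of these data known. Named were all 10 genes, their selective and strongest regions, and for each pathway list the 2 highest and 2 lowest genes and those with a start peak in 3 or fewer libraries.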

Additional observations from a re-analysis of the deposited data

How the results depend on the processing

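Start peaks in all libraries were kept by 8 to 10 of the 10 genes in the 4 alternatives run for this count, and 0 of the 10 starts were called in any of the 16 alternatives. The largest start differences kept their direction in all 16. The number of genes called in the start fit, 1, was 204 with a −log10 q of at least 2, 21 with the top 50000 peaks of each list and 35 with no filter on libraries, and 0 with quantile-normalised log2 fold enrichment, a 3 kb window, lane as covariate or any library left out (0 to 0). The number of regions called, 1894, was 6160, 4462, 0 and 5924 with q, top peaks, log2 fold enrichment and lane, and 0 to 3706 with a library left out, the highest being without beta replicate 1. The log2 fold enrichment count of 0 is for the test over 3 cell types; between alpha and beta it called 3114 regions, 1 of them of the 10 genes (Atf6 +135.9 kb). The cause was not tested. Regions of the 10 genes called, 0, were 1 with q and 1 with top peaks, 5 with lane as covariate, and 0 to 2 with a library left out. Atf6 +135.9 kb was among them each time, its difference between beta and delta being −56.5 with q, −59.4 with top peaks, −76.2 with lane and −73.5 without beta replicate 1. These 4 settings drop or absorb the peak of beta 1, the only beta peak there, and leave beta at 0 with no spread. The lane contrast rests on beta 1 alone in lane 6. Under it the Wfs1 +28.5 kb difference between alpha and beta, 26.3 points, turned to −0.26. Deviations of same-numbered libraries from their cell type mean correlated at −0.0163 to 0.0338. With 2 alpha and 2 delta libraries the deviations within each of these types mirror each other. These correlations therefore cannot show whether same-numbered libraries share animals. With a replicate block 0 genes and 0 regions were called.

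Regions of the 10 genes in at least 2 libraries, 52, were 29 with q, 31 with top peaks and 33 within gene bodies, and 42 to 51 with a library left out. Those in all libraries, 16, were 10 with q and 4 where peaks had to cover 0.5 of a region, and 16 to 17 with a library left out. The 13 regions selective between cell types were 7 with q, 7 among regions of at least 3 libraries and 8 within gene bodies, and 11 to 21 with a library left out, the highest being without delta replicate 2; where 1 library of a cell type is left, a peak in it alone counts, so the rule is looser there. The lists give neither depth nor a detection limit at an absent peak.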
